A study of Mus musculus with 8 samples.

Results

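Eph receptors are receptor tyrosine kinases and ephrins are their membrane-bound ligands, so signalling needs contact between cells and can run into both of them. A-type ephrins are held in the membrane by a lipid anchor and B-type ephrins span it, and EphA and EphB receptors mostly bind the ephrins of their own type. In the embryonic cortex the family is known for repelling and sorting axons and migrating neurons, for cortical area maps and for contacts among radial glia, the neural stem cells in which the zinc-finger transcription factor PRDM16 is expressed.

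PRDM16 binding was mapped around 10 genes of this family by chromatin immunoprecipitation and sequencing (ChIP-seq). The genes were taken by name, with earlier results of these data known. The EphA receptor genes were Epha3, Epha4, Epha5 and Epha7, and the EphB receptor genes Ephb1, Ephb2 and Ephb3. The ephrin genes were Efna5, Efnb1 and Efnb2. A peak was counted for a gene when its summit, the base of highest signal, lay in the gene body or within 100 kb of its nearer end with no protein-coding gene closer. This gave 163 peaks of the 48145 in the 4 lists. The conditional knockout (cKO) cortex carried floxed Prdm16 alleles on both chromosomes and Cre from the Emx1 locus (Emx1Ires-Cre; Prdm16flox/flox), and the wild-type (WT) cortex had the same floxed alleles without Cre (Prdm16 flox/flox). All were whole cortex lysates at E15.5, with 2 ChIP libraries per genotype. Emx1-driven Cre acts in the dorsal telencephalic lineage, so cells of other origin in the lysate keep an intact allele. No label says whether embryos were pooled or whether replicates came from separate litters, so p-values measure only the spread between these libraries.

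The lists held 4553 and 3088 peaks in cKO replicates 1 and 2, against 13852 and 26652 in WT replicates 1 and 2. Peak lists do not measure expression, so neither the loss of Prdm16 nor the tissue label could be checked by RNA or protein. At 7 genes of the dorsal telencephalon the lists held 7 and 2 peaks in the cKO replicates, against 56 and 72 in the WT replicates, and at 6 genes of liver, muscle and choroid plexus 0 and 0 peaks, against 1 and 1. Both gene lists were chosen with earlier results of these data known, so the counts are a description and no check of the antibody or the tissue. The names of the peaks carry an identifier of the library that is the same for both WT lists and absent from both cKO lists, so genotype and whatever this identifier marks cannot be told apart. In a lysate of many cells, fewer bound cells and less binding per cell cannot be told apart either.

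At 4 of the 10 genes a peak had its summit in the 250 bases before the start site, and these bases are shown because they hold the summits on which the account of gene starts below turns. The sequences are from RefSeq (GRCm38.p6, the assembly of mm10), read 5′ to 3′ on the gene's own strand and ending at the base before the start of the transcript. The 21 bases in capitals are centred on the summit of the strongest peak in the window. The Efnb2 window is chr8:8661243-8661492, the Ephb1 window chr9:102354694-102354943, the Epha3 window chr16:63864176-63864425 and the Epha5 window chr5:84417383-84417632, all on the minus strand. Peak summits in the Efnb2 and Ephb1 windows came from cKO lists alone, and those in the Epha3 and Epha5 windows from WT lists alone.
Efnb2: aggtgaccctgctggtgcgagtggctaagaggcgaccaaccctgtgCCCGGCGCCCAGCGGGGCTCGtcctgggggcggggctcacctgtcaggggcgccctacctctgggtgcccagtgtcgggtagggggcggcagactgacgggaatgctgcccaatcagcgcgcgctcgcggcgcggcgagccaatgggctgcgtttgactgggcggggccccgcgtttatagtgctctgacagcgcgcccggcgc
Ephb1: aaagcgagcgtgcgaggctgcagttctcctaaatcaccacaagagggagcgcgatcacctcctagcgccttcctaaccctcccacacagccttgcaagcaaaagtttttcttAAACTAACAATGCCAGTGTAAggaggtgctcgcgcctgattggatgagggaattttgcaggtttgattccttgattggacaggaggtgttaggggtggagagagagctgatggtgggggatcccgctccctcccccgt
Epha3: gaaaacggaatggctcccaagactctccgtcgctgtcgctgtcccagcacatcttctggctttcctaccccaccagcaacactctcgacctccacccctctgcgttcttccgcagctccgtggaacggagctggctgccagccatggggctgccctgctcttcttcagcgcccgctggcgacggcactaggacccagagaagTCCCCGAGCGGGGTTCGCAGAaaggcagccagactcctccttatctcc
Epha5: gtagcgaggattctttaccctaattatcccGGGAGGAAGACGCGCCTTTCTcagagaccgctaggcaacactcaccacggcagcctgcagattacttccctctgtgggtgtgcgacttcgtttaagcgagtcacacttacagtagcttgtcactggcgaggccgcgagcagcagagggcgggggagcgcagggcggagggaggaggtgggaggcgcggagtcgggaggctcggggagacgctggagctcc

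Of the 5 short motifs searched on both strands in these windows, the GC box GGGCGG known for Sp and Klf factors stood 2 times before Epha5 and 3 times before Efnb2. The CCAAT box of NF-Y stood 2 times before Efnb2 and 2 times before Ephb1. The Epha3 window held none of the 5. Over the 11 windows of the 10 genes, Epha7 having 2, GGGCGG was in 7 and CCAAT in 7, against 32.7% and 33.8% of all 32851 windows in the table. The 2 Epha7 windows overlap over most of their length and share a site of each motif, so Epha7 counts 2 times in both numbers. The E-box CAGATG of proneural factors, the Sox-type site ACAAAG and AGATGAG, a part of the site known for the related zinc-finger factor EVI1, were in 0 of the 11 windows, against 14.4%, 16.5% and 3.81% of all windows. CAGATG and AGATGAG can overlap. The share of G and C was 62.8% for Epha3, 62.4% for Epha5, 72.0% for Efnb2 and 54.0% for Ephb1, against a median of 52.4%. Over the 11 windows it ran from 54.0% to 74.8% (Efna5), so all were above this median. A match is a description of these letters and no more.

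The Eph and ephrin genes had fewer listed peaks in cKO cortex than in WT cortex. The 10 genes held 5 and 8 peaks in cKO replicates 1 and 2, against 54 and 96 in WT replicates 1 and 2. The mean was 6.5 ± 2.12 peaks in cKO and 75.0 ± 29.7 in WT (SD, n = 2 each), a cKO to WT ratio of 0.0867, and the groups did not overlap. An exact two-sided permutation test over the libraries gave p = 0.333, the smallest value that 2 libraries against 2 allow. The ratio over all peaks was 0.189. The 10 genes took 0.110% (95% Wilson interval 0.0469 to 0.257) of the peaks of cKO replicate 1 and 0.259% (0.131 to 0.510) of replicate 2, against 0.390% (0.299 to 0.508) of WT replicate 1 and 0.360% (0.295 to 0.440) of WT replicate 2. The intervals cover counting error only, and that of cKO replicate 2 overlaps both WT intervals. In lists limited to their 3088 peaks of lowest p-value, the counts were 5 and 8 in the cKO replicates, against 15 and 20 in the WT replicates, a ratio of 0.371.

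**Figure D1:**
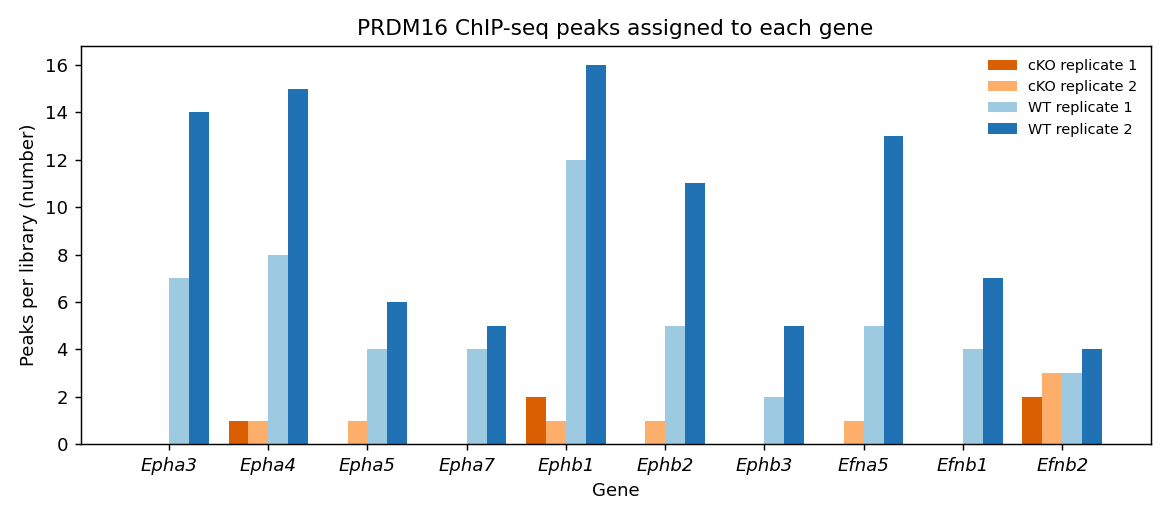
Number of PRDM16 ChIP-seq peaks assigned to each of the 10 genes, one bar per library (cKO replicates in orange, WT replicates in blue). At Efnb2 the cKO bars of 2 and 3 peaks reach the WT bars of 3 and 4, and at the other genes both cKO bars are lower. The WT lists are longer as a whole, and the share of all genes with this pattern was not computed.

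All 10 genes had a peak in each WT list, where 23.6% (replicate 1) and 34.5% (replicate 2) of the 21883 protein-coding genes did. A peak was listed at 3 of the 10 in cKO replicate 1 and at 6 of the 10 in cKO replicate 2, where 16.4% and 11.8% of protein-coding genes had one. Peaks of both WT lists that overlapped were joined into 45 regions. Of these, 44 overlapped no peak of either cKO list and are called WT-only regions, and 1 overlapped a peak in both cKO lists. Each of the 10 genes carried 1 or more WT-only regions, against 16.6% of protein-coding genes. The 10 were chosen with earlier results of these data known, so these shares are a description alone. Of the family genes not chosen, 1 of 7 Eph receptor genes and 0 of 5 ephrin genes had a WT-only region. Genes with long bodies collect more regions: among the 2428 protein-coding genes with a body of at least 100 kb, the share was 57.5%, and 7 of the 10 genes are of this length. The lists of 3088 peaks gave 13 WT-only regions, at 8 of the 10 genes, Epha7 and Ephb3 having none.

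The EphA receptor genes carried 17 WT-only regions, the EphB receptor genes 17 and the ephrin genes 10. Fold enrichment is the authors' ratio of the summit over its local background, and its values fit a small constant added to both. It ranks peaks within a list and is not a measure of change between genotypes. The constant lowers folds more where the background is low. The median background at peaks was 0.985 overlapping fragments in WT replicate 1 and 2.32 in WT replicate 2, so folds of the WT replicates are not on quite the same scale. The median of the mean WT fold was 8.53 over the 44 regions, against 7.51 over all 9232 WT-only regions. In 8 of the 44 the mean fold was among the highest 10% of all WT-only regions. In 37 the summit lay in the gene body, in 5 beyond the end of the gene and in 2 before its start. This is 84.1% (70.6 to 92.1) in the body, against 61.9% (60.8 to 63.0) of all WT-only regions within 100 kb of a gene. The difference was not tested, and the length of the genes moves with it. The RefSeq table gives no exons, so exons and introns were not separated.

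**Figure D2:**
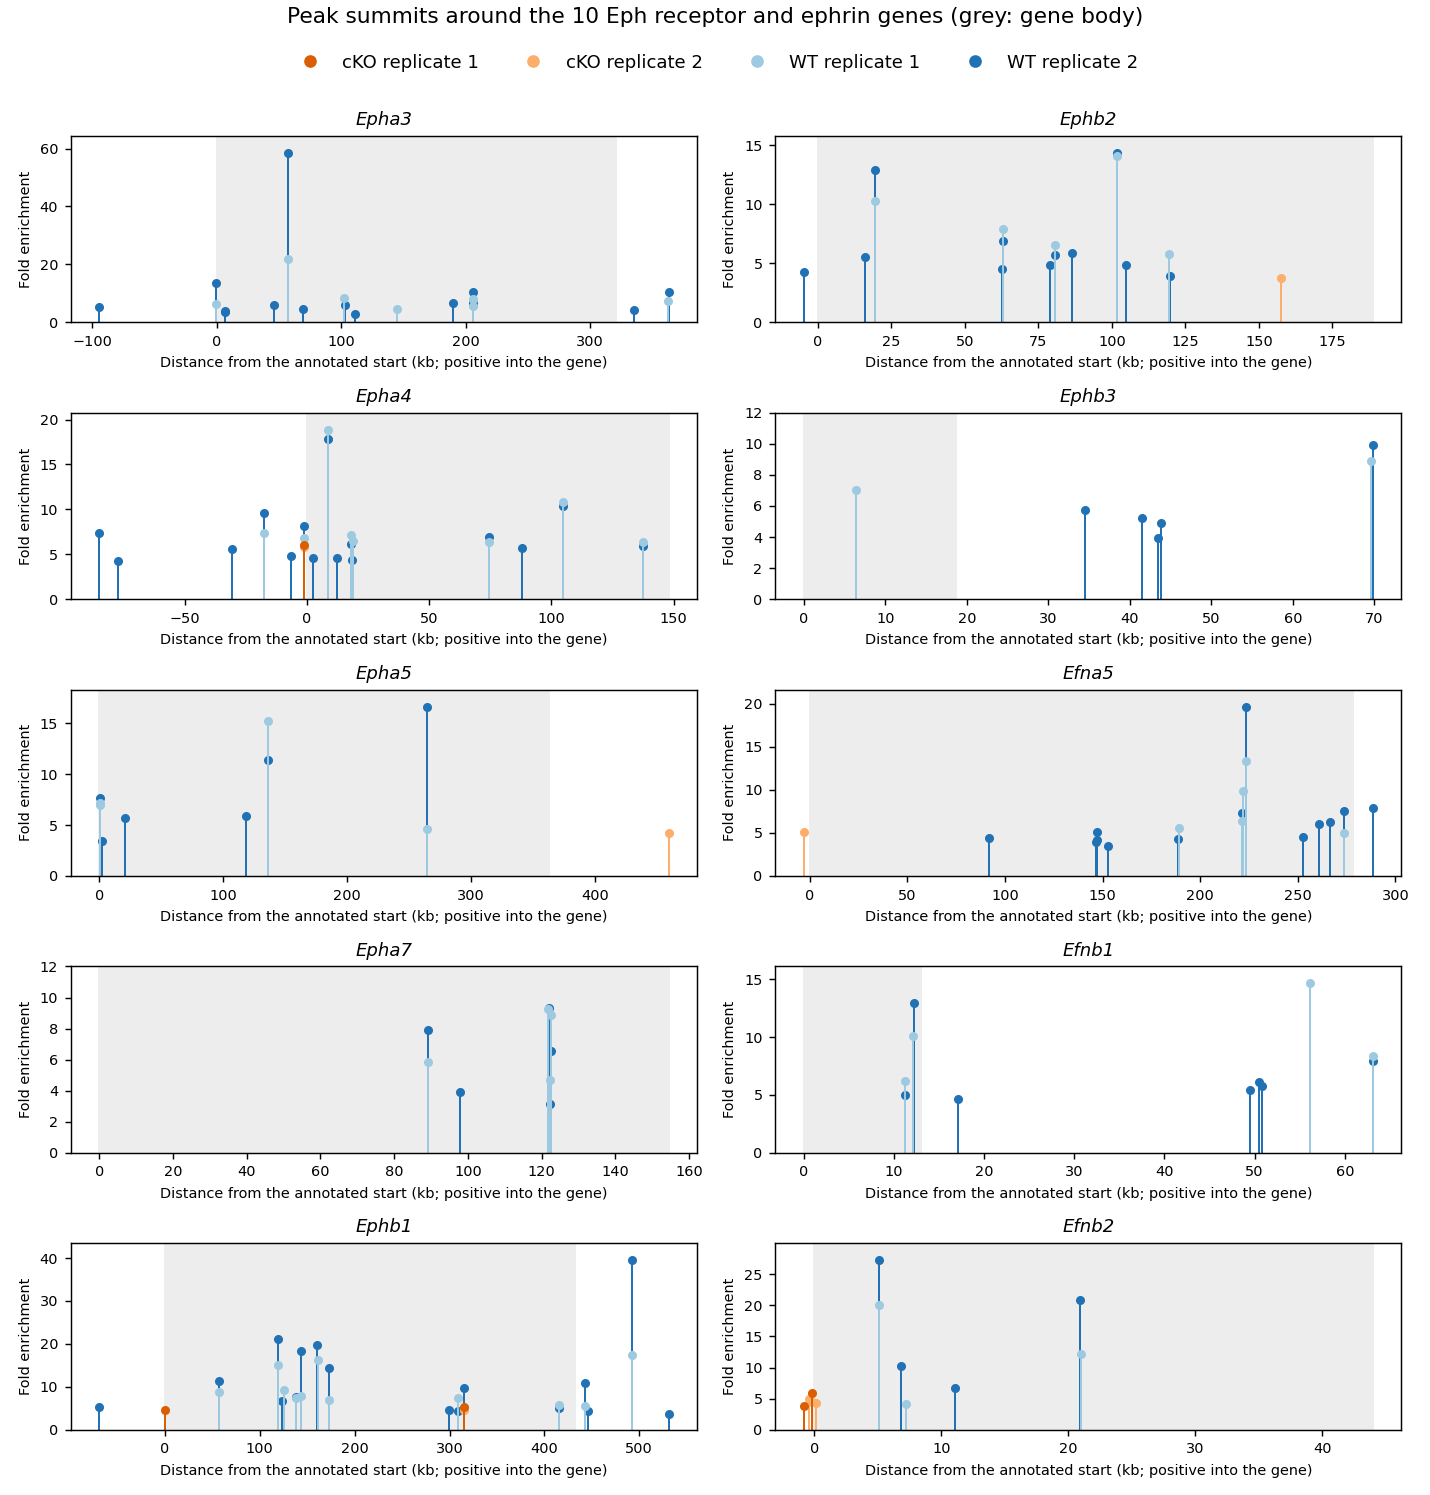
Fold enrichment (vertical axis) of each peak summit against its distance from the annotated start of the gene in kb (horizontal axis, positive into the gene), with a panel per gene, the gene body in grey and a colour per library. WT peaks are spread along the bodies and flanks, the highest being the 58.5-fold peak in Epha3, and the cKO peaks range from 3.77 to 6.06-fold. Folds are not comparable between genotypes, since the genome background was higher in the cKO libraries.

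Among the EphA receptor genes, Epha3 held the strongest region of the family. Epha3 encodes a receptor of A-type ephrins that is known for guiding retinal and cortical axons. It had 0 and 0 peaks in the cKO replicates, against 7 and 14 in the WT replicates, and 6 WT-only regions. The strongest, chr16:63806178-63807350, lay in the gene body 57454 bp from its start, with folds of 22.0 and 58.5 in WT replicates 1 and 2, a mean of 40.2 ± 25.9 (SD, n = 2). It ranked 34 of the 9232 WT-only regions, and no peak was listed there in the cKO. Both WT folds were above every cKO peak of the family. Fold is not a measure of change between genotypes, however, and this region was picked for its high WT fold. A pair of regions 113 bp apart lay deeper in the body, 206260 and 205700 bp from the start, with mean folds of 7.31 ± 0.949 and 8.02 ± 3.41.

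Epha4 encodes a receptor that binds ephrins of both types and is known for corticospinal axon guidance. It had 1 and 1 peak in the cKO replicates, against 8 and 15 in the WT replicates. Of its 7 regions in both WT lists, 6 were WT-only. The strongest of them, chr1:77506068-77506711 in the gene body 8657 bp from the start, had folds of 18.9 and 17.9 in WT replicates 1 and 2, so the replicates nearly matched. Another, chr1:77409892-77410915, had 10.8 and 10.4. A WT-only region 17729 bp before the start, chr1:77532484-77533099, had 7.32 and 9.64 and lay over the lncRNA gene model Gm32793.

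Epha5 and Epha7 encode receptors of A-type ephrins known for topographic maps and, for Epha7, for a role in cortical progenitors. Epha5 had 0 and 1 peak in the cKO replicates, against 4 and 6 in the WT replicates. Its strongest WT-only region, chr5:84281488-84282177, lay 135849 bp into the gene with 15.2 and 11.4 in WT replicates 1 and 2. In a region 264516 bp into the gene the WT replicates were far apart, with folds of 4.60 and 16.6, and without WT replicate 1 this became the strongest region of Epha5. The cKO peak of Epha5, in replicate 2 with 4.20-fold, lay 96386 bp beyond the end of the gene, close to the 100 kb limit. Epha7 had 0 and 0 peaks in the cKO replicates, against 4 and 5 in the WT replicates. Its peaks in the WT lists made 2 WT-only regions, the stronger one a block of 1154 bp, chr4:28934750-28935903, that joins several neighbouring peaks, with 9.27 and 9.32.

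Among the EphB receptor genes, Ephb1 had the most regions of the family. Ephb1, a receptor of B-type ephrins known for steering retinal axons at the midline, had 2 and 1 peaks in the cKO replicates, against 12 and 16 in the WT replicates. It carried 11 WT-only regions, and 0.146% of protein-coding genes, taken at any length, had as many or more. Ephb1 has the longest body of the genes chosen (432.6 kb), and long genes collect more regions. Its body held 2.08 WT-only regions per 100 kb. This was below Efnb1 (15.4), Efnb2 (6.82), Epha4 (3.38) and Ephb2 (2.65), and above Epha3, Epha5, Epha7, Ephb3 and Efna5. The strongest WT-only region of Ephb1, chr9:101862047-101863127, lay 59425 bp beyond the end of the gene, with folds of 17.3 and 39.5 in WT replicates 1 and 2. It is outside the reach of a 20 kb limit, under which the strongest region of Ephb1 had a mean fold of 18.2, against 28.4. The next protein-coding gene, Ppp2r3a, was 610871 bp away. In the gene body, regions at 119044, 160483 and 143120 bp from the start had mean folds of 18.2 ± 4.24, 18.0 ± 2.55 and 13.1 ± 7.35. The region at 160483 bp, chr9:102192612-102194730, was the widest of the 45 with 2119 bp.

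Ephb2 encodes a receptor known for commissural axon guidance and for synapse formation. It had 0 and 1 peak in the cKO replicates, against 5 and 11 in the WT replicates, with 5 WT-only regions, all in the gene body. Its strongest, chr4:136734292-136734737, had 14.1 and 14.4 in WT replicates 1 and 2, and the next, chr4:136816743-136817166, 10.3 and 12.9. The cKO peak, in replicate 2 with 3.77-fold, lay 37676 bp from the nearest peak of a WT list. Ephb3, a related receptor gene, had 0 and 0 peaks in the cKO replicates, against 2 and 5 in the WT replicates. Its single WT-only region, with 8.91 and 9.95, lay 51145 bp beyond the end of the gene over the lncRNA gene model Gm16863, and was lost when the distance was limited to 20 kb.

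Of the ephrin genes, Efna5 encodes an A-type ephrin known for guidance of retinal and thalamic axons. It had 0 and 1 peak in the cKO replicates, against 5 and 13 in the WT replicates. Its 4 WT-only regions lay in the part of the body farther from the start, 188929 to 273624 bp from it. The strongest, chr17:62657540-62658622, had 13.3 and 19.7 in WT replicates 1 and 2, and a second one 815 bp away had 9.83 and 7.33. The cKO peak lay on the other side, 3044 bp before the start, with 5.09-fold in replicate 2.

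Efnb1, an X-linked B-type ephrin gene whose mutation causes a craniofacial syndrome in humans, had 0 and 0 peaks in the cKO replicates, against 4 and 7 in the WT replicates. Its strongest WT-only region, chrX:99148020-99148603, lay 735 bp from the end of the gene with 10.1 and 12.9. Efnb2, a B-type ephrin gene needed for blood vessel formation and also expressed in the nervous system, had 2 and 3 peaks in the cKO replicates, against 3 and 4 in the WT replicates. At Efnb2 the counts of the genotypes overlapped, but the sites did not. Its 3 WT-only regions lay in the body 5121 to 20944 bp from the start. The strongest, chr8:8655185-8656398, had 20.025 and 27.3 in WT replicates 1 and 2, at rank 217 of the WT-only regions, and chr8:8639527-8640604 had 12.2 and 20.8.

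The folds of the WT replicates were correlated over the regions that both lists held. Over the 44 WT-only regions the log2 folds of the replicates had a Pearson correlation of 0.70, a description over sites that share libraries and backgrounds, and 0.70 over all 9232. Of the peaks of WT replicate 1 around the 10 genes, 88.9% (77.8 to 94.8) were found in replicate 2, against 78.2% (77.5 to 78.9) of its whole list. In the other direction it was 48 of 96 peaks (interval 40.2% to 59.8%), against 38.7% (38.2 to 39.3).

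**Figure D3:**
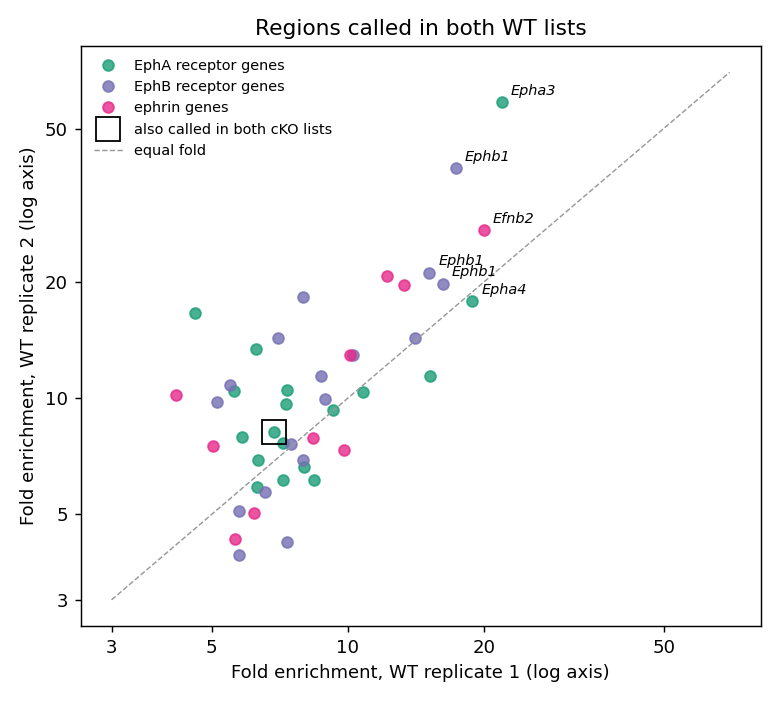
Fold enrichment in WT replicate 1 (horizontal, log axis) and WT replicate 2 (vertical, log axis) of the 45 regions called in both WT lists, coloured by gene class, with the dashed line at equal fold. The highest points are the Epha3 region (22.0 and 58.5) and the Ephb1 region (17.3 and 39.5), and the square marks the Epha4 region (6.86 and 8.18) that both cKO lists also hold.

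Near gene starts the pattern differed from gene to gene. At Epha3 both WT lists held a peak over the start site, with summits 79 and 38 bp before it and folds of 6.27 and 13.4 in WT replicates 1 and 2, and no cKO peak was listed. At Epha5 both WT lists held a peak with its summit 152 and 210 bp before the start of the RefSeq transcript, with 7.18 and 7.65, and again no cKO peak was listed. This site lies 226 bp inside the outer limit of the annotated Epha5 gene and also in the body of the gene model Gm42163. At Epha4 a site before the start was called in all 4 lists, with summits 1314 and 1271 bp before it in the cKO replicates, against 1292 and 1230 bp in the WT replicates. The folds were 6.06 and 5.85 in cKO replicates 1 and 2, against 6.86 and 8.18 in WT replicates 1 and 2. This was the only 1 of the 45 regions kept in a cKO list, 2.22% (0.393 to 11.6), while 8.5% of all 10090 regions of both WT lists were kept. Of protein-coding genes 3.22% had a kept region.

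At Efnb2 peaks flanked the start site in the cKO lists and not in the WT lists, and none covered the start itself. A summit stood 194 bp before the start in cKO replicate 1 with 5.93-fold and 167 bp before it in cKO replicate 2 with 4.46-fold. Farther out, cKO peaks of 3.87-fold in replicate 1 and 4.94-fold in replicate 2 joined into a second region, and cKO replicate 2 had one more peak of 4.34-fold, 144 bp inside the gene. The nearest WT peak ended 4877 bp from the first region, and the next protein-coding gene, Arglu1, was 4861 bp away. At Ephb1 cKO replicate 1 alone had a peak just before the start, with its summit 128 bp from it and 4.57-fold. Both cKO lists also held a peak 315070 bp into Ephb1, chr9:102039405-102039756, with 5.25 and 4.51. It lay only 90 bp from a peak of WT replicate 1 and 142 bp from one of WT replicate 2, which had 5.14 and 9.78, so at this place the absence of overlap depends on the limits of the peaks.

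**Figure D4:**
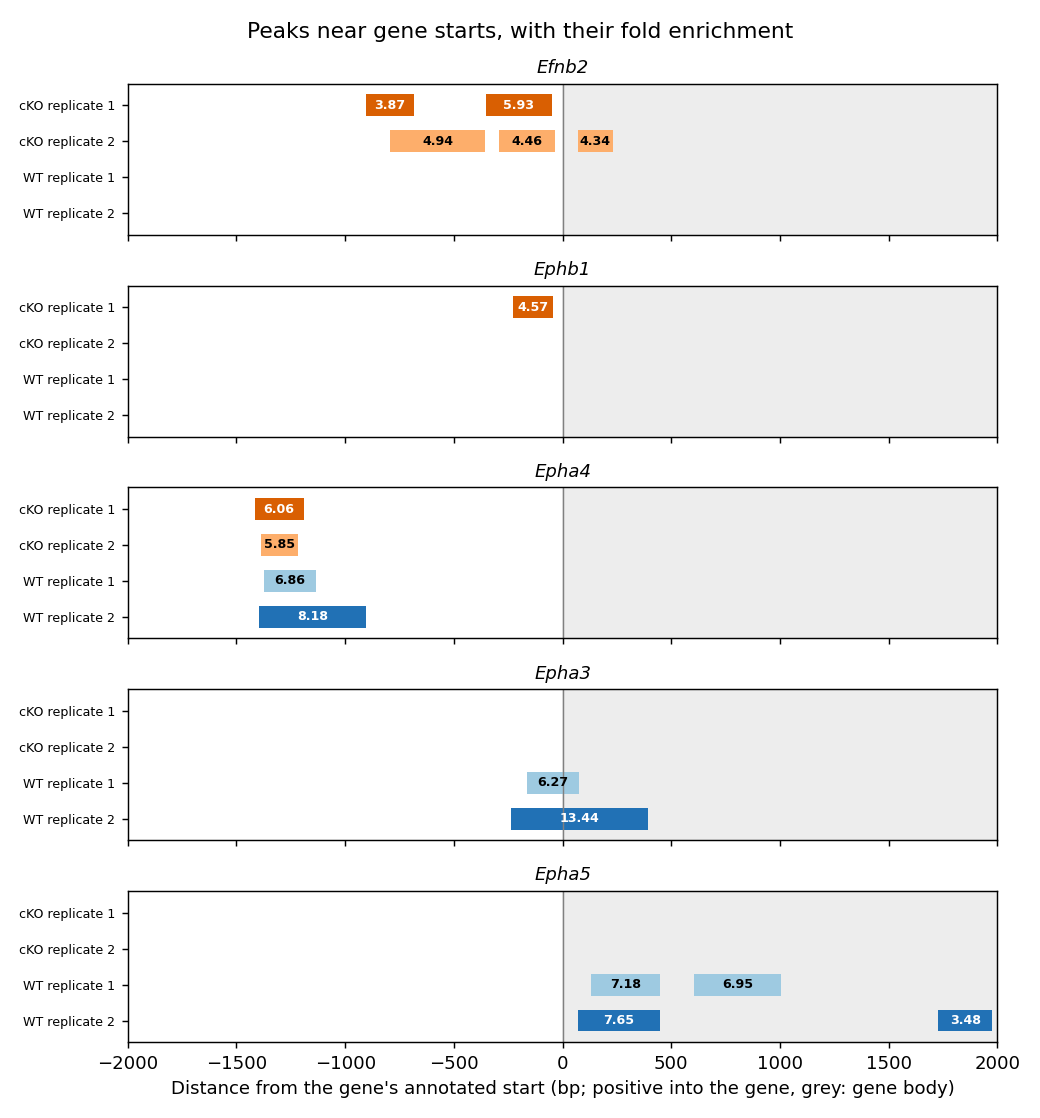
Peaks near the annotated start of 5 genes, with a row per library (cKO above WT) and the fold enrichment written in each bar. The horizontal axis is the distance from the start in bp, positive into the gene (grey). Efnb2 and Ephb1 have cKO peaks alone, Epha4 has a peak in all 4 rows, and Epha3 and Epha5 have WT peaks alone, those of Epha5 inside the annotated gene because its outer limit lies beyond the start of the RefSeq transcript.

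In all, 4 regions around the family were found in both cKO lists, at 3 of the 10 genes (Epha4, Ephb1 and Efnb2), against 6.83% of protein-coding genes. Of these, 3 overlapped no WT peak, 2 at Efnb2 and 1 at Ephb1, so 2 of the 10 genes had such a region, against 3.43% of protein-coding genes. Only 3 of the 44 WT-only regions lay within 1 kb of a gene end (6.82%, 2.35 to 18.2), close to the 5.57% of all WT-only regions. They were those at Epha3, Epha5 and Efnb1.

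How weak a peak each library could still list was read from the peaks themselves. The genome background was 2.95 and 2.52 overlapping fragments per base in the cKO replicates, against 0.777 and 1.78 in the WT replicates. At its median background, the smallest fold that passed was 3.18 and 3.26 in the cKO replicates, against 3.53 and 3.01 in the WT replicates. In all 44 WT-only regions both WT folds were above both cKO limits. These regions had already passed in both WT lists, whose limits are close to those of the cKO lists, so this outcome was nearly fixed beforehand. Its share over all WT-only regions was not computed. After division by 2, the lower WT fold was still above both cKO limits in 26 of the 44 (59.1%, 44.4 to 72.3), against 47.1% of all WT-only regions. Folds are not comparable between genotypes, since the background was higher in the cKO libraries, and a fold divided by 2 is not binding divided by 2. This count therefore cannot say whether weaker binding would have been listed in the cKO. These limits hold at the median background and are no floor, since a list can hold a lower fold where the local background is higher. Every cKO peak of the family was above both WT limits, and with limits so close this outcome too was nearly fixed beforehand. The summits in the first region before Efnb2 held 25 and 23 overlapping fragments in cKO replicates 1 and 2. Likewise the strongest Epha4 region rested on 48 and 66 fragments, and the strongest Efnb2 region on 51 and 115, in WT replicates 1 and 2. Many other WT-only regions rested on fewer. In WT replicate 1 the fewest were 7, at the Efnb2 region chr8:8653765-8654701, and an Efna5 region rested on 9.

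The other genes of the family were counted in the same way. Of the 7 other Eph receptor genes, 1 had a WT-only region, a share near the 16.6% of all protein-coding genes. This was Epha6, within the gene at chr16:59854248-59854943, with folds of 11.0 and 17.1 in WT replicates 1 and 2. Of the 5 other ephrin genes 0 had one, although 3 of the 5 had a peak in WT replicate 2. Epha6 had 0 and 1 peak in the cKO replicates, against 1 and 4 in the WT replicates. Efna1 had 1 and 0 peaks in the cKO replicates, against 0 and 1 in the WT replicates, and Efna3 2 and 0, against 1 and 0.

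Of 27 genes for signal transduction below the receptors, their adaptors and ephrin cleavage, 13 had a WT-only region, against 16.6% of all protein-coding genes and 57.5% of those with a body of at least 100 kb. The highest was Rgs3, a regulator of G-protein signalling that binds B-type ephrins, at 24.6 ± 0.540 in its body. The chimaerin gene Chn2 had 16.6 ± 7.16. The Abl-family kinase gene Abl2 had 15.7 ± 5.90, and the exchange factor genes Vav3 and Vav2 had 14.4 ± 4.86 and 11.2 ± 1.12, the Vav3 region 46856 bp outside the gene. Pik3r1, a regulatory subunit gene of phosphoinositide 3-kinase, had 12.04 ± 0.141 at 33389 bp outside the gene. The small GTPase genes Rhoa, Cdc42 and Rac1 had 0 peaks in each of the 4 lists, as did some others of the 27. Most protein-coding genes had no peak in a given list, the highest share with one being 34.5% in WT replicate 2. The share with none in all 4 lists was not computed. For Chn1, the chimaerin gene known to act below Epha4, the only region of both WT lists was also found in a cKO list. In all, 4 of the 27 genes had a kept region, the others being Chn2, Rgs3 and the Src-family kinase gene Fyn. Of all protein-coding genes, taken at any length, 3.22% had one, and the difference was not tested.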

How the data were processed

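ChIP-seq with an antibody to PRDM16 was analysed in 2 cKO and 2 WT libraries of whole cortex. Input libraries were not analysed. Tools named in the submitters' processing notes are MACS2 2.1.1, Bowtie2 2.2.8, cutadapt and FastQC, with the build mm10; settings are not given in the sources used here. The authors deposited 1 peak list per library; the fold (a ratio), the −log10 p-value, the −log10 q-value and a score made from it are the authors' values in the deposited lists. The score was not used.

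Only the numbered chromosomes and X and Y were used, which left out 37 and 19 lines of the cKO and 12 and 14 of the WT lists. Summits were assigned to RefSeq protein-coding genes (GRCm38.p6). Regions of different lists were shared from 1 bp of overlap. Whole-number summit pileups were solved from fold and p-value within 0.0001 for 99.9% to 100.0% of every 5th summit. The steps were tested on simulated data with known answers. Python 3.11.15, NumPy 2.4.6, pandas 2.3.3 and SciPy 1.17.1 were used. The 10 members and the other gene lists were chosen with earlier results of these data known. All 10 members are named, each with its strongest region and its cKO peaks; of the other genes, at most 8 with a WT-only region by mean fold, and those of the family with a region of both lists; 1 of these genes is not reported here. Rhoa, Cdc42, Rac1, Chn1, Fyn, Efna1 and Efna3 were named after their values were seen.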

Additional observations from a re-analysis of the deposited data

How the results depend on the processing

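The lower number of cKO peaks held under every alternative tried: the cKO to WT ratio was 0.0839 with a −log10 q of at least 3, 0.0930 within 20 kb, 0.0351 in gene bodies only, 0.371 in lists of equal length and 0.0667 to 0.120 when a replicate was left out. The labels do not say that replicate numbers pair the libraries; with the replicate number as a block, the pairs gave ratios of 0.0926 and 0.0833 (geometric mean 0.0878), and an exact permutation of signs over the pairs gave p = 0.5 (two-sided), its lowest possible value. No list held overlapping intervals, so merging changed nothing. The 44 WT-only regions numbered 13 in lists of equal length and 44 to 95 when a replicate was left out, the 95 when WT replicate 1 was the one omitted. The share of regions kept in a cKO list was 0% in gene bodies only, the Epha4 site being outside the gene, and 1.04% to 2.22% with a replicate left out. It was also 0% in lists of equal length. There the cKO lists still held 5 and 8 peaks, the regions of both WT lists numbered 13, and the Epha4 site was not among these. With a cKO peak within 250 bp counted as shared, chosen after seeing the data, 2 of the 45 regions were kept (4.44%). Among the other Eph, ephrin and downstream genes, 14 of 39 had a WT-only region, 6 in lists of equal length and 14 to 29 with a replicate left out, the 29 without WT replicate 1. Of the strongest folds per gene, that of Epha5 became 16.6 without WT replicate 1 and that of Efnb1 14.6 without WT replicate 2, both at another site. That of Ephb1 was 18.2, at another site, within 20 kb and in gene bodies only, against 28.4. Peak lists limit what can be said: a site below a list's threshold has no value.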

Other observations

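Some peaks around the family were in a single WT list. WT replicate 1 alone held 6, the strongest of them 43227 bp outside Efnb1, chrX:99192108-99192392, with 14.6-fold, where WT replicate 2 listed nothing. In WT replicate 1 the strongest WT-only region of Efnb1 had 10.1-fold. WT replicate 2 alone held 48, with a median fold of 4.87 and a highest of 7.91, this one 10171 bp outside Efna5.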
